A study of Mus musculus with 4 samples.

Results

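Immunoglobulin variable (V) gene segments were read in all 4 libraries of sorted mouse periosteal cells, and 206 of the 218 segments listed had reads in at least 1 of them. The 218 segments were the rows of the deposited gene table whose gene type was exactly IG_V_gene, out of 47643 rows, so they were chosen by annotation and not by any measured value. They comprised 113 heavy chain segments on chromosome 12, 102 kappa segments on chromosome 6 and 3 lambda segments on chromosome 16. Every one of them matched GENCODE M21 (build GRCm38, the mm10 assembly) by gene identifier, coordinates and strand. V segments were above the unread floor of the table in 87 cases for cells that carried the lineage label and in 205 cases for cells that did not, and the summed level was lower in both labelled libraries than in both unlabelled ones.

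The cells came from the periosteum, the membrane on the outer face of bone, of femoral shafts of mice with 1 Sox9CreErt2 allele, a tamoxifen-dependent Cre recombinase in the Sox9 locus, and 1 Td-Tomato reporter allele in the Rosa26 locus. All animals, in both groups, carried both alleles and had 3 intraperitoneal injections of 100 µL tamoxifen at 20 mg/mL with 48 h between them, and femora were taken 2 weeks after the last. After 2 h in liberase at 100 µg/mL, TdTomato+ cells (2 libraries) and TdTomato- cells (2 libraries) were sorted, about 10000 of each from 18 femora of 9 mice pooled over 2 collections. Each collection gave 1 TdTomato+ and 1 TdTomato- library, so the design is paired. The values carry no collection number, so the tests here are unpaired. The sources used here do not give the age of the mice. The reporter marks cells in which the Sox9 locus was active when tamoxifen was given, together with their descendants, and TdTomato- cells are all other sorted cells, blood cells included where the digest held them. Because mice were pooled, p-values measure the spread between libraries and not between animals.

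An antibody pairs heavy chains with light chains, and a light chain is either kappa or lambda. A developing B cell joins a single one of many V segments to short D and J segments in its heavy chain locus, and a V to a J segment in a light chain locus, so that each B cell and all its descendants carry transcripts of few V segments, which are spliced to a constant region such as Igkc or Ighm. A tissue with many unrelated B cells therefore holds reads of many V segments, whereas a single expanded clone or a few plasma cells, which secrete antibody and hold large amounts of its mRNA, give reads of few.

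Segments to which the results return are shown first, by the last 60 coding bases of their V exon, 5′ to 3′ on the coding strand, from GENCODE M21. Capitals mark the last in-frame cysteine codon, which encodes the conserved cysteine just before the third hypervariable loop, the part of the chain that the joining of segments makes.
Igkv6-23: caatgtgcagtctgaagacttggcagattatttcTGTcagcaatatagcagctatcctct
Igkv4-50: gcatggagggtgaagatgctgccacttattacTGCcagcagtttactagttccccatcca
Igkv1-135: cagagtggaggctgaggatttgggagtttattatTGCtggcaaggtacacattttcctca
Igkv12-44: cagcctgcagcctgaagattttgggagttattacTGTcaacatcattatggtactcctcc
Ighv1-4: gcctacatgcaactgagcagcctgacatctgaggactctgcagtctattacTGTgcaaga
Ighv1-80: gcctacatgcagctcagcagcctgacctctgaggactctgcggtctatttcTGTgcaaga
Ighv5-12: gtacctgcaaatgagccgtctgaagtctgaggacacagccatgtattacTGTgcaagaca
Iglv1: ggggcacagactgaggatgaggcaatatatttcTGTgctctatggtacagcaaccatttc

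The kappa windows were chr6:70260409-70260468 (minus strand) for Igkv6-23, chr6:69700767-69700826 (minus) for Igkv4-50, chr6:67610449-67610508 (plus) for Igkv1-135 and chr6:69814631-69814690 (minus) for Igkv12-44. The heavy chain windows, all on the minus strand, were chr12:114487136-114487195 for Ighv1-4, chr12:115912344-115912403 for Ighv1-80 and chr12:113702124-113702183 for Ighv5-12, and the window of Iglv1 was chr16:19085017-19085076 (minus). An in-frame cysteine codon stood in the last 60 coding bases of 216 of the 218 segments. The 3 heavy chain windows end within 8 bases after the codon, and the kappa and lambda windows run on for 23 to 25 bases.

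Segments of a family resemble each other closely enough to share reads, and the V exon of Igkv6-23, the segment with the highest TdTomato- level, is shown beside that of Igkv6-25, the segment with which it shared the most read-length windows. Capitals mark the bases at which the pair differs.
Igkv6-23: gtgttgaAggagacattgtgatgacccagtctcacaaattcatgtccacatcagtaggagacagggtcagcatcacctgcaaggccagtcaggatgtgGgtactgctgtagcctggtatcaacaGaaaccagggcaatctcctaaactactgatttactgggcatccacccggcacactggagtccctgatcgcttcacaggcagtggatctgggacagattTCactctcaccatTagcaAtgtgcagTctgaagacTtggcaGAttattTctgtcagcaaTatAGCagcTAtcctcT
Igkv6-25: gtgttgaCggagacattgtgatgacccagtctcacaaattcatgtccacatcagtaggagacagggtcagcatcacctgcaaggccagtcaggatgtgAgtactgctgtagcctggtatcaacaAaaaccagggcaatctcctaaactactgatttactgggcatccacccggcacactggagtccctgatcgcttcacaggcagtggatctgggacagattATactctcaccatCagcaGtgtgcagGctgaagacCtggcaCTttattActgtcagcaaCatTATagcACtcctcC

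These exons lie at chr6:70260409-70260706 (minus strand) and chr6:70215660-70215957 (plus strand) and hold 298 bases each. The pair differed at 19 bases and was identical at 279, or 93.6%. Over all segments, 129 of 218 shared at least 1 window of 75 bases, the length of a read, with another V segment, and Ighv1-62-2 and Ighv1-71 shared all of theirs. Of the 82 segments with reads that shared no such window, 68 had whole read numbers in every library, against 10 of the 124 that shared some, so the deposited values of related segments contain fractions of reads. The split of reads within a family is for that reason uncertain, and family sums are firmer in that respect.

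The deposited table gives group means and the authors' comparison. The values of single libraries were solved from 4 of its columns and are given in reads, or as RPKM, reads divided by the genomic span in kilobases and by the depth of the library in M (mega) reads. The implied depth was 32.0 and 41.6 M reads for TdTomato+ and 17.0 and 74.0 M for TdTomato-, and libraries are called shallower and deeper within their group because no value carries a collection number. The most common value, times the span, was 2.77 in TdTomato+ and 3.62 in TdTomato-, which is the value of a gene with 0 reads. Such a gene has a deposited ratio of TdTomato+ to TdTomato- of 0.764 from the depths alone. For 15 of the 218 segments, Igkv6-23, Ighv1-4, Iglv1, Iglv2 and Igkv12-44 among them, which of a pair of values belongs to which library was settled only by requiring that the reads of a V family sum to whole numbers, a step chosen after the data were seen. For the Igkv6 family in TdTomato-, that choice left the sums 8.30e-05 reads from whole, and the next best choice left 0.217. The margin was narrower for Ighv1 in TdTomato-, which has 5 open rows and 32 choices, at 0.000501 and 0.0581. For Igkv12 in TdTomato+ it was 1.46e-05 and 0.0481.

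Fewer V segments were above the floor in TdTomato+ than in TdTomato- cells in the heavy and kappa classes. In TdTomato+ cells 46 of 113 heavy, 38 of 102 kappa and 3 of 3 lambda segments were above it, or 39.9% in all. In TdTomato- cells 103 heavy, 99 kappa and 3 lambda segments were above it, or 94.0%. Both groups shared 86 segments, 119 were above the floor in TdTomato- cells alone, and 1 in TdTomato+ cells alone (Ighv8-13, named after its values were seen, with 2.36 reads in the deeper library). The 12 at the floor in both groups were 9 heavy segments, Ighv1-16, Ighv1-24, Ighv2-4, Ighv2-7, Ighv5-12-4, Ighv6-4, Ighv6-7, Ighv7-2 and Ighv16-1, and 3 kappa segments, Igkv3-3, Igkv8-26 and Igkv18-36. Over all 47643 rows, 49.1% were above the floor in TdTomato+ and 51.1% in TdTomato-, so the V segments lay on opposite sides of the table as a whole in the 2 groups. Of those rows, 24258 were at the floor in TdTomato+, 23304 in TdTomato- and 20974 in both. Most rows at the floor in 1 group were thus at it in the other too.

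The counts of the single libraries showed that most of this breadth came from 1 library. Segments with reads numbered 38 and 67 in the shallower and deeper TdTomato+ libraries, and 74 and 205 in the TdTomato- libraries. At 10 reads or more there were 5, 48, 15 and 170. Without the deeper TdTomato- library, then, 74 segments were above the floor in TdTomato- cells, against 87 in the 2 TdTomato+ libraries together. The libraries also differed in the V reads they held, and when each was thinned to the 249 of the smallest, the expected number of segments was 38.0 and 51.9 in TdTomato+ and 42.6 and 99.8 in TdTomato-. The deeper TdTomato- library kept the widest range of segments at equal V reads, and the shallower one lay between the TdTomato+ libraries. A segment with 0 reads may hold up to 1.20% and 0.169% of the V reads of the TdTomato+ libraries and 0.207% and 0.0138% of those of the TdTomato- libraries (3 reads of the total), limits that cover counting error only because PCR copies were not told apart.

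Summed over all 218 segments, the V level was 14.2 and 86.2 RPKM in TdTomato+ and 167 and 582 RPKM in TdTomato- cells. Both TdTomato+ libraries were below both TdTomato- ones. These sums rest on 249 and 1770 reads against 1450 and 21811, or 7.79 and 42.5 against 85.4 and 295 RPM (reads per M of depth). On the log2 scale the means were 5.13 ± 1.84 (SD, n = 2) and 8.28 ± 1.28 (SD, n = 2), a difference of -3.15, or 8.89-fold lower in TdTomato+ cells, with p = 0.333 in an exact two-sided permutation test, the smallest p that 2 libraries against 2 can give. Without the shallower TdTomato+ library the difference was -1.85 and without the deeper one -4.45, and without the shallower and the deeper TdTomato- library it was -4.05 and -2.25. Without the 10 segments with the highest TdTomato- level, a choice that lowers TdTomato- by construction, the sums were 11.8 and 67.0 against 39.1 and 476 RPKM and the groups overlapped. By the authors' means, floor subtracted and times the span, the sums were 1259 and 8843, 7.02-fold apart. In bulk RNA, fewer B lineage cells and less V transcript per cell cannot be told apart.

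**Figure D1:**
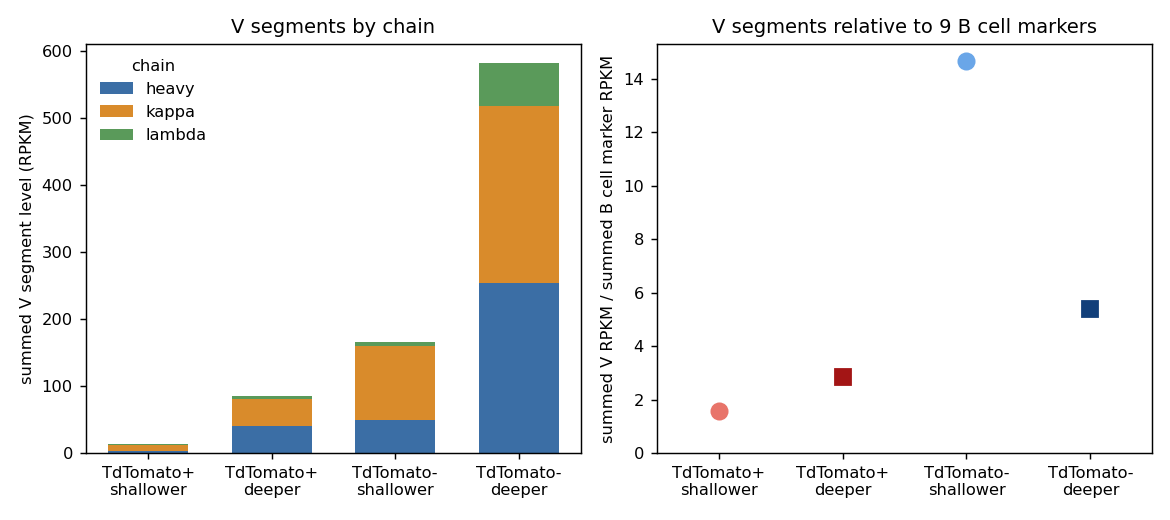
The left panel stacks the summed V segment level (RPKM, linear axis from 0) of heavy, kappa and lambda segments for each of the 4 libraries, and the right panel gives the same sum divided by the summed RPKM of 9 B cell markers, 1 point for each library. Bars reach 14.2 and 86.2 RPKM in TdTomato+ and 167 and 582 RPKM in TdTomato- libraries, and the points lie at 1.58 and 2.87 against 14.6 and 5.40.

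The B cell markers fixed for these cells were lower on average as well, but their groups overlapped. The 9 genes summed, among them Cd79a and Cd79b, parts of the B cell receptor complex, and Pax5, the transcription factor that holds B cell identity, had a summed level of 8.99 and 30.1 RPKM in TdTomato+ and 11.4 and 108 RPKM in TdTomato- libraries. All 9 had a lower mean in TdTomato+ cells, beside 49.2% of the 20522 rows with reads and settled values. Of the 9, 0 had an authors' p below 0.05, and Fcer2a was at 0 in the shallower TdTomato+ library. Summed V RPKM per summed RPKM of this list was 1.58 and 2.87 in TdTomato+ and 14.6 and 5.40 in TdTomato-. This ratio was 4.18-fold lower in TdTomato+ cells and its groups did not overlap (exact permutation test, p = 0.333). Cd79a and Cd79b made up 84.5% to 94.4% of the summed level in the 4 libraries, so the ratio is mostly one to this pair. Taken marker by marker, the ratio was lower in both TdTomato+ libraries for 6 of the 8 markers read in all 4 libraries. It overlapped for Cd22, a B cell surface lectin, at 358 and 331 in TdTomato+ against 427 and 335 in TdTomato-, and for Cr2, a complement receptor with 1 read in each TdTomato+ library. Jchain, which links secreted IgA and IgM into polymers and marks plasma cells, was read at 0.170 and 0.0862 RPKM in TdTomato+ and at 3.93 and 7.65 RPKM in TdTomato- cells, with a p of 0.00108 in the authors' deposited table. Of 13 plasma cell symbols listed, 12 were in the table. Of these, 8 had a lower mean in TdTomato+ cells, beside the same 49.2% of rows, and Jchain alone had an authors' p below 0.05. For 3 of the 12, both TdTomato- libraries were above both TdTomato+ ones, beside 13.9% of the 20522 rows. The reverse held for 1, beside 13.5% of those rows. This was Sdc1, at 3.15 and 1.55 RPKM in TdTomato+ against 1.05 and 0.656 RPKM in TdTomato-. Whether counts from so few genes differ from those shares was not tested. The 10 of the 12 whose library values were settled summed to 10.3 and 10.1 RPKM in TdTomato+ against 9.34 and 41.4 RPKM in TdTomato-. Tnfrsf17, a receptor of plasma cells, was at 0 in the deeper TdTomato+ and the shallower TdTomato- library. The ratio of summed V RPKM to a list was apart for other fixed lists too, so it was not particular to B cell markers. For early B genes it was 0.982 and 5.41 in TdTomato+ against 14.5 and 8.40 in TdTomato-. For neutrophil genes it was 0.00164 and 0.0121 against 0.0166 and 0.0243. Pan-leukocyte genes overlapped, at 0.169 and 2.89 against 1.99 and 2.79, as did T cell genes. Each of these lists has library values that were not settled. The part of cell composition in the V levels was not tested.

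As for the labelled tissue, Sox9 was read at 16.4 and 4.51 RPKM in TdTomato+ and at 3.32 and 0.0244 RPKM in TdTomato- libraries, and the cartilage proteoglycan gene Acan at 1.51 and 0.785 RPKM against 0.0688 and 0. Marrow and blood transcripts were present in both groups, with the neutrophil granule gene Ngp at 470 and 1972 RPKM in TdTomato+ and at 1698 and 4770 RPKM in TdTomato- cells.

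No V segment passed an FDR of 0.05 in the authors' deposited table, in which 3 of 47643 rows (0.0063%) did. The smallest FDR of a V segment was 0.10, that of Ighv1-80. At an unadjusted p below 0.05 there were 42 V segments (19.3%), 17 heavy, 23 kappa and 2 lambda, and all were lower in TdTomato+ cells, against 0.3% of all rows that were lower at that p and 0.894% in either direction. In the other direction the count was 0, against 0.594% of all rows. Of the 42, 28 had 0 reads in both TdTomato+ libraries and 38 had reads in both TdTomato- libraries. The authors' ratio of a segment with 0 reads in 1 group depends on the offset in their scale and is no fold. In limma on log2(RPKM + 1), 0 of the 34 V segments that passed a filter of 1 RPKM in 2 libraries had an adjusted p below 0.05 (0.0% of the 6858 rows tested), and 10 were lower at an unadjusted p below 0.05 (3.83% of all rows). The filter can be passed through TdTomato- libraries alone, so the 34 are not a sample of all 218.

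By the recovered values, 194 of the 206 segments with reads had a lower mean RPKM in TdTomato+ cells (94.2%) and 12 a higher one, beside 49.2% lower among the 20522 rows with reads and settled values. In 55 of the 206 (26.7%) both TdTomato- libraries were above both TdTomato+ libraries, beside 13.9% of those rows, and 22 of the 55 were heavy, 31 kappa and 2 lambda. The reverse held for 1 segment, Ighv1-23, beside 13.5%. Of the 206, 119 had 0 reads in both TdTomato+ libraries, entered through TdTomato- reads alone and could only come out lower. The 194 and the 55 therefore describe the segments that were read and test nothing. With reads pooled within a group and 3 reads over the group as its floor, 195 segments had a value, 109 of them a bound because TdTomato+ held 0 reads. The median log2 ratio of TdTomato+ to TdTomato- was -3.03. Those 109 entered through TdTomato- reads alone and could only come out lower, so the median describes the segments that entered and tests nothing. Over the 17447 settled rows, of which 1648 had 0 reads in TdTomato+, the same median was 0.15. Pooled TdTomato- reads are mostly those of the deeper library. By chain the median was -2.71 for heavy, -3.09 for kappa and -3.98 for the 3 lambda segments.

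The smallest authors' p of a V segment belonged to a heavy segment, Ighv1-80. It had 0 reads in both TdTomato+ libraries and 95 and 140 reads in the TdTomato- libraries (12.9 and 4.37 RPKM). Its pooled RPM was at least 63.3-fold lower in TdTomato+ cells, and its p in the authors' deposited table was 1.74e-05. Both TdTomato- libraries thus held it well above the floor, the shallower one at the higher RPKM although it was the library with fewer reads.

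Ighv1-4 also had 0 reads in both TdTomato+ libraries, and 137 and 14.3 reads in the TdTomato- libraries (18.5 and 0.444 RPKM). It was at least 40.7-fold lower in TdTomato+ cells and had a p of 0.000556 and an FDR of 0.976 in the authors' deposited table. By these values its level came almost wholly from the shallower TdTomato- library, where it held 35.8% of all heavy V reads. They rest on the family sum, and under the other assignment Ighv1-4 would have 0.183 and 2608 reads, or 23.2% of the heavy V reads of the deeper library. Ighv1-82, with 0 and 0 reads against 12 and 187 (1.51 and 5.41 RPKM), showed the opposite order within TdTomato-, and was at least 53.8-fold lower in TdTomato+ cells (p of 0.000699 and FDR of 1.00 in the authors' deposited table).

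Among the named segments, Ighv5-12 and Ighv1-23 were heavy segments with a higher mean in TdTomato+ cells. Ighv5-12, the heavy segment with the highest TdTomato+ level, had 0 and 95.0 reads in TdTomato+ (0 and 5.02 RPKM) and 0 and 44.5 reads in TdTomato- (0 and 1.32 RPKM). Its reads came from the deeper library of each group only, and its p in the authors' deposited table was 0.544. Ighv1-23 had 6 and 34.0 reads in TdTomato+ (0.433 and 1.88 RPKM) and 0 and 5.20 reads in TdTomato- (0 and 0.162 RPKM). Both TdTomato+ libraries were above both TdTomato- ones, with p = 0.0708 and an FDR of 1.00 in the authors' deposited table.

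Among kappa segments Igkv6-23 stood first in TdTomato- cells. It had 5 and 95.0 reads in TdTomato+ (0.286 and 4.17 RPKM) and 536 and 185 reads in TdTomato- (57.7 and 4.57 RPKM). The groups did not overlap, although the deeper libraries of both groups lay close together and the shallower TdTomato- library lay far above all others. The authors' deposited table gives it a p of 0.0127 and an FDR of 1.00. Under the assignment that the family sum refused, its TdTomato- values would be 9.01 and 10200 reads (0.970 and 252 RPKM) and its groups would overlap, so its values rest on that step as those of Ighv1-4 do.

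Igkv4-50 had 0 and 95.0 reads in TdTomato+ (0 and 4.38 RPKM) and 157 and 35.0 reads in TdTomato- (17.8 and 0.908 RPKM). Its groups overlapped, and its p in the authors' deposited table was 0.0664. It shared no window of 75 bases with another segment, and its read numbers were whole without recourse to the family sum. Like Igkv6-23, Ighv1-4 and Ighv1-80 it was higher in RPKM in the shallower TdTomato- library than in any other.

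Other kappa segments were high in the deeper TdTomato- library instead. Igkv1-135 had 0 and 0 reads in TdTomato+ against 22.0 and 737 reads (1.63 and 12.5 RPKM), and was at least 205-fold lower in TdTomato+ cells (p of 0.00012 and FDR of 0.357 in the authors' deposited table). Igkv14-111 had 0 and 0 reads against 6 and 337 (0.735 and 9.47 RPKM), at least 92.4-fold lower in TdTomato+ cells (p of 0.00084 and FDR of 1.00 in the authors' deposited table). Both were thus segments of which TdTomato+ libraries held no read, while the deeper TdTomato- library held many.

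Igkv10-96, with 1.00 and 1.00 reads in TdTomato+ against 7 and 449 reads in TdTomato-, and Igkv1-117, with 9.01 and 2.00 against 25.9 and 646, had their groups apart as well. The authors' p was 0.00201 for Igkv10-96 and 0.00419 for Igkv1-117 in the deposited table. Igkv12-46 had 0 and 20.0 reads against 53.0 and 316 (0 and 0.961 RPKM against 6.24 and 8.55), with an authors' deposited p of 0.00201, and Igkv10-94 had 0 and 38.0 reads against 31.0 and 210, with 0.0177. Igkv6-15, read in all 4 libraries, had 16 and 56 reads against 25 and 473 (0.956 and 2.57 RPKM against 2.81 and 12.2), and its deposited p was 0.207. Its deeper TdTomato+ value and its shallower TdTomato- value were nearly level, so the separation of its groups is narrow.

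Igkv12-44 had the highest TdTomato+ level of all segments. It had 13.8 and 92.0 reads in TdTomato+ (0.824 and 4.22 RPKM) and 0 and 367 reads in TdTomato- (0 and 9.46 RPKM), with p = 0.501 in the authors' deposited table. The groups overlapped because the shallower TdTomato- library held none of it and the deeper one more than any other library. Igkv5-48, with 0 and 109 reads in TdTomato+ and 0 and 91.0 in TdTomato- (4.63 and 2.17 RPKM in the deeper libraries), Igkv13-85, with 0 and 70.0 against 0 and 29.4, and Igkv8-34, with 0 and 29 against 0 and 4, were read in the deeper library of each group only. Gm43218, a kappa segment with no family name that shares most of its 75-base windows with Igkv8-16, had 8 and 29.7 reads in TdTomato+ and 0 and 63.5 in TdTomato-. With Ighv5-12 and Ighv1-23, the segments Igkv13-85, Igkv8-34 and Gm43218 were the 5 with the smallest authors' p among those with a deposited ratio above 1, and these p ran from 0.0708 to 0.544.

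The lambda locus of the mouse holds few V segments, and all 3 rows were above the floor in both groups. Iglv1 had 9.25 and 65.3 reads in TdTomato+ (0.598 and 3.24 RPKM) and 38.8 and 1414 in TdTomato- (4.72 and 39.5 RPKM), and its p in the authors' deposited table was 0.0312. Its groups did not overlap, and it was the segment with most reads in the deeper TdTomato- library. Iglv2 had 2.75 and 35.7 reads against 8.18 and 613 (0.187 and 1.87 RPKM against 1.05 and 18.1), so its groups overlapped (p of 0.0736 in the authors' deposited table). Iglv3 had 9.00 and 0 reads against 7 and 218, and its deposited p was 0.0259. For Iglv1 and Iglv2, which value belongs to which library was settled by the sum of the lambda family. Under the other assignment Iglv2 would stand at 1.41 and 0.274 RPKM in TdTomato+ against 4.06 and 4.92 RPKM in TdTomato-. Its groups would then not overlap, and those of Iglv1 would stay apart.

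**Figure D2:**
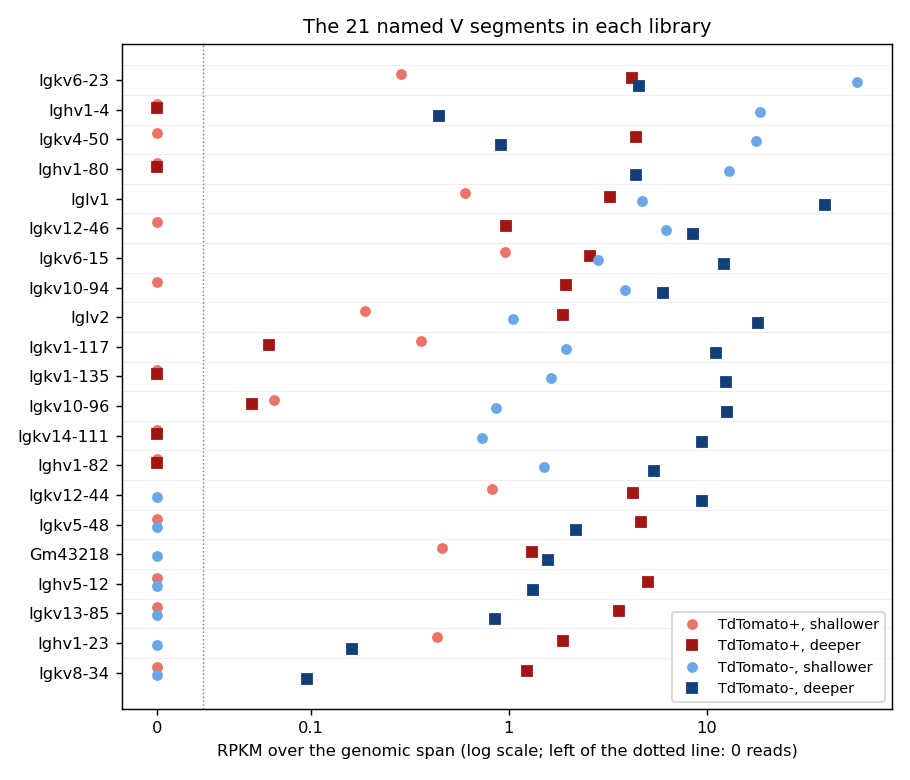
Each row is 1 of the 21 named V segments, ordered by TdTomato- level, and each point is its RPKM in 1 library on a log axis, with 0 reads drawn left of the dotted line. With values assigned by family sums, Igkv6-23, Ighv1-4, Igkv4-50 and Ighv1-80 are highest in the shallower TdTomato- library (57.7, 18.5, 17.8 and 12.9 RPKM). Iglv1 is highest in the deeper one (39.5 RPKM).

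A few segments dominated the TdTomato- level by the authors' group means. By group level, Igkv6-23 held 19.6% of the summed V level of TdTomato- cells, Ighv1-4 6.21%, and the top 5 and top 10 segments 41.0% and 50.6%. In TdTomato+ cells Igkv12-44 led with 5.05%, and the top 5 and top 10 held 22.8% and 40.1%. It took 10 segments to reach 50% of the level in TdTomato- cells and 14 in TdTomato+ cells. The effective number of segments, which is 1 over the sum of squared shares, was 18.2 and 40.2. The authors' mean divides by depth once more than RPKM does and so counts the shallower library of a group more. By the mean RPKM of the 2 libraries the top segment of TdTomato- cells held 8.32% and the top 10 held 32.0%, which puts the top 10 of TdTomato- cells below the 40.7% that the top 10 of TdTomato+ cells held on that scale. Under the other assignment of the 15 segments settled by family sums, these mean RPKM shares would be 26.2% for the top segment and 48.8% for the top 10 of TdTomato- cells, above the 40.0% of the top 10 of TdTomato+ cells.

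In the shallower TdTomato- library Igkv6-23 alone held 37.0% of the 1450 V reads (95% Wilson interval 34.5% to 39.5%). There 3 segments, Igkv6-23, Igkv4-50 and Ighv1-4, held over 50% of the V reads, the top 10 held 77.7%, and the effective number was 6.01. Igkv6-23 made up 52.9% of the kappa V reads of that library. In the deeper TdTomato- library, by contrast, it held 0.848% of the V reads. The top segment there was Iglv1 with 6.48% (6.16% to 6.82%), the top 10 held 28.4%, 28 segments were needed for 50%, and the effective number was 65.8. By effective number the 2 TdTomato- libraries were thus the most and the least concentrated of the 4. That order rests on the family sums. Under the other assignment the effective number would be 15.5 in the shallower and 9.17 in the deeper TdTomato- library, where Igkv6-23 would hold 31.3%, Ighv1-4 8.01% and the top 10 52.2% of the V reads. The deeper library would then be the most concentrated of the 4, against 12.4 and 32.9 in TdTomato+.

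The TdTomato+ libraries lay between them by top 10 share, segments needed for 50% and effective number, but not by top segment. In the shallower one Igkv1-110, named after its values were seen, held 53.0 of 249 V reads, or 21.3% (16.7% to 26.8%), and the top 10 held 62.3% (56.1% to 68.0%). In the deeper one Igkv5-48 led with 6.16% (5.13% to 7.38%), and the top 10 held 44.6% (42.3% to 46.9%). The number of segments for 50% was 7 and 12, and the effective number 13.9 and 33.5. In each of these measures of concentration the groups overlapped.

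**Figure D3:**
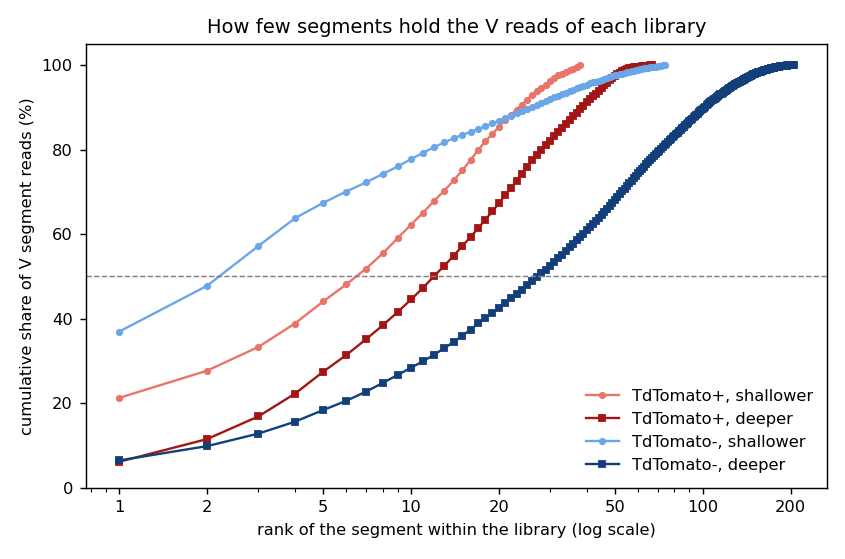
Each line is 1 library, with the rank of a V segment within that library on a log axis and the cumulative share of its V reads, in percent, on the other, and the dashed line marks 50%. With the 15 segments assigned by family sums, the shallower TdTomato- library passes 50% at its 3 top segments and the deeper one at 28, with the TdTomato+ libraries at 7 and 12.

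Leading segments were also compared within chains. Among heavy segments the leading one held 22.4% (Ighv1-64) and 12.2% (Ighv5-12) of heavy V reads in TdTomato+, and 35.8% (Ighv1-4) and 5.55% (Ighv3-6) in TdTomato- libraries. Among kappa segments it held 31.2% (Igkv1-110) and 12.3% (Igkv5-48) against 52.9% (Igkv6-23) and 6.71% (Igkv1-135). By this share the shallower TdTomato- library was the most and the deeper the least concentrated in the heavy and kappa chains. By the top 10 share of heavy V reads the shallower TdTomato+ library, with 58 such reads, was higher, at 87.0% against 83.6%. Under the other assignment the leading shares in the TdTomato- libraries would be 39.1% (Ighv1-80) and 23.2% (Ighv1-4) of heavy, and 29.7% (Igkv4-50) and 50.5% (Igkv6-23) of kappa V reads. Ighv1-64 and Ighv3-6 were named after their values were seen. Iglv1 led the lambda segments in every library, with 44.1% and 64.6% of lambda V reads in TdTomato+ and 71.9% and 63.0% in TdTomato-.

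Families followed the single segments. Ighv1, the largest heavy family with 53 of the 113 rows (46.9%), held 79.3% and 54.0% of heavy V reads in TdTomato+ and 82.2% and 53.1% in TdTomato-, above its share of rows in all 4 libraries. Of the Ighv3 segments, 6 of 6 were read in TdTomato- cells, with 534 reads in the deeper library and 0 in the other 3 libraries. Igkv6, with 9 of 102 kappa rows (8.82%), held 20.6% and 18.1% of kappa V reads in TdTomato+ and 55.8% and 13.5% in TdTomato-. Under the other assignment Igkv6-23 alone would hold 9.01 of 529 kappa V reads in the shallower TdTomato- library. In the deeper one it would hold 50.5%, so the order of these libraries rests on the family sum. Igkv4, the largest kappa family with 26 rows (25.5%), held less than its share of rows in every library on the family sum assignment. Its share was down to 10.6% in the shallower TdTomato+ one. Under the other assignment Igkv4 would hold 213 of the 529 kappa V reads of the shallower TdTomato- library, more than its share of rows. Igkv1 held 36.5% and 4.17% against 5.03% and 19.0%, so its share differed more within each group than between them. All family shares given here use the family sum assignment, and those of Igkv4 and Igkv1 depend on it too.

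Position in the locus is the other feature that the choice of members did not use. With the heavy segments split into the 56 nearest to the J segments and the 57 farthest from them, the far ones held 82.8% and 47.6% of heavy V reads in TdTomato+ and 43.2% and 54.1% in TdTomato-. The far 51 of the 102 kappa segments held 51.2% and 28.4% of kappa V reads against 17.5% and 53.2%. The low value of the shallower TdTomato- library goes with Igkv6-23, which lies 462 kb from the J segments, in the near set. These shares use the family sum assignment only, on which the values of Igkv6-23 rest. In both loci the groups overlapped, and segments were read along the whole of each locus.

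**Figure D4:**
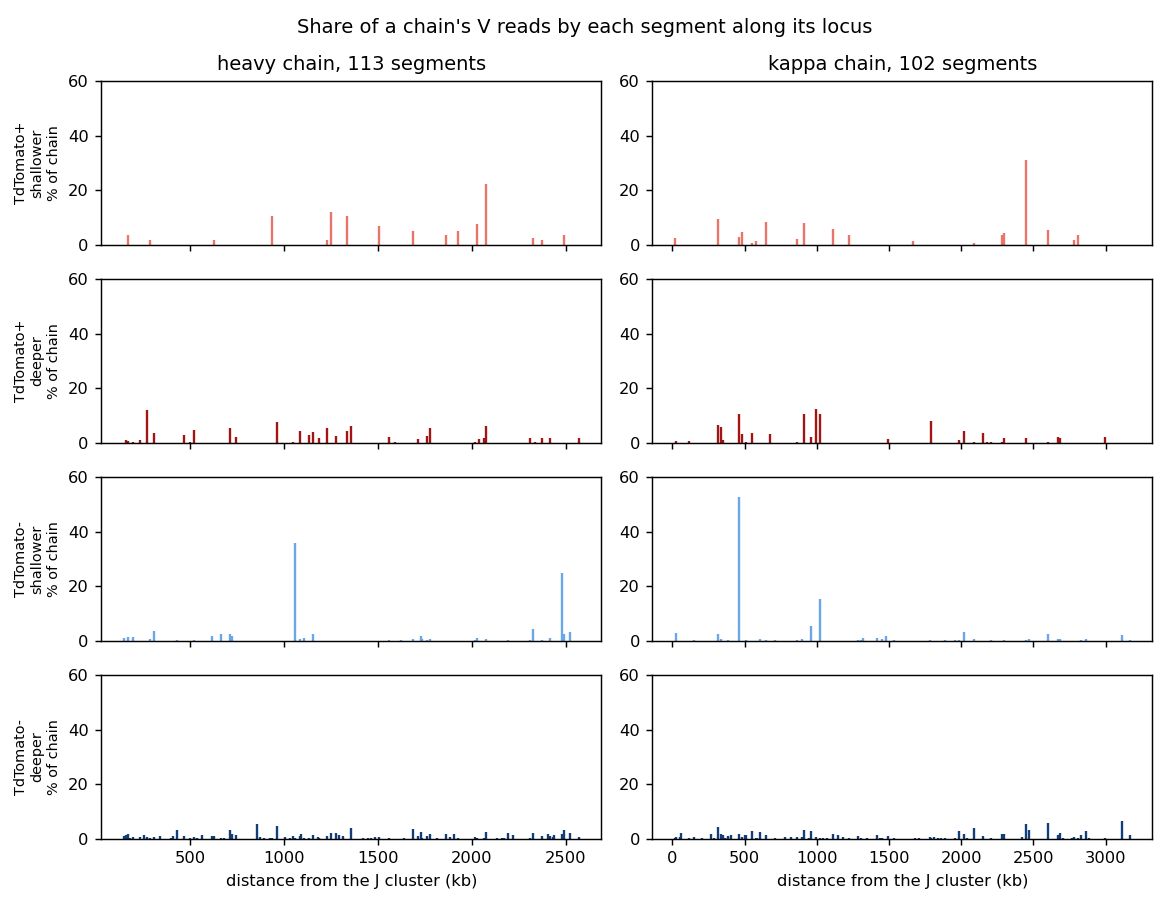
Each vertical line is 1 segment at its distance from the J segments (kb), and its height is its share, in percent, of the V reads of its chain in that library (rows: the 4 libraries; columns: heavy and kappa chain). With the 15 segments assigned by family sums, the tallest lines are Igkv6-23 (52.9%) and Ighv1-4 (35.8%) in the shallower TdTomato- library. On the same assignment no line exceeds 6.71% in the deeper TdTomato- library.

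The balance of the chains did not separate the groups. Heavy segments held 23.3% and 44.1% of V reads in TdTomato+ and 26.3% and 39.3% in TdTomato-, kappa segments 68.3% and 50.2% against 69.9% and 50.4%, and lambda segments 8.43% and 5.71% against 3.72% and 10.3%. In both groups the shallower library had the lower heavy share. Kappa to lambda V reads stood at 8.10 and 8.79 against 18.8 and 4.89. On RPKM, the log2 kappa to lambda ratio differed by -0.21 (TdTomato+ minus TdTomato-) and the heavy share by 0.737 percentage points, with p = 1 for each in an exact two-sided permutation test. The TdTomato- values lay on both sides of the TdTomato+ values for kappa to lambda.

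The segments read were compared between each pair of libraries. Reads in all 4 libraries were found for 12 segments, 3 heavy (Ighv1-64, Ighv1-74, Ighv5-4), 7 kappa (Igkv1-110, Igkv1-117, Igkv6-15, Igkv6-23, Igkv10-96, Igkv12-41, Igkv16-104) and 2 lambda (Iglv1, Iglv2). The TdTomato+ libraries shared 18 segments, which is 47.4% of the 38 and 26.9% of the 67. All 74 segments of the shallower TdTomato- library were among the 205 of the deeper one, and so were all 38 and 66 of the 67 of the TdTomato+ libraries. With the smaller of a segment's shares summed over segments, the TdTomato+ libraries had 25.2% of their V reads in common and the TdTomato- libraries 27.9%, within the range of 12.8% to 36.3% for the 4 pairs across groups. Of the 10 top segments of each library, 3 were shared within either group and 3 to 5 by pairs across groups. The reads in common and the top segments use the family sum assignment only.

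Constant region genes and other antigen receptor rows give the setting. Igkc, the kappa constant region to which every kappa V segment is spliced, had 506 and 2476 reads in TdTomato+ and 2202 and 25469 reads in TdTomato-. There were 0.336 and 0.359 kappa V reads per Igkc read in TdTomato+ and 0.461 and 0.431 in TdTomato-. The ratio was lower in both TdTomato+ libraries than in both TdTomato- ones, a separation for which 2 libraries against 2 can give no exact p below 0.333. Under the other assignment it would be 0.409 and 0.333 against 0.240 and 0.794, and the groups would overlap. Igha, the constant region of IgA, had 30.0 and 33.0 reads in TdTomato+ against 1116 and 13176 in TdTomato- (0.174 and 0.147 RPKM against 12.2 and 32.9), with p = 1.2e-05 and an FDR of 0.0953 in the authors' deposited table. In the TdTomato- libraries IgA transcripts were therefore present beside the V segments, and in TdTomato+ libraries they were few. Igha is not typical of its class. Of 13 constant rows, 3 were lower at an authors' p below 0.05, beside 0.3% of all rows. Ighm stood at 49.8 and 14.1 RPKM in TdTomato+, or at 10.8 and 64.8, as its assignment was not settled. In TdTomato- it stood at 40.7 and 217 RPKM, so its groups overlapped either way (p of 0.213 in the authors' deposited table).

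V pseudogenes, which cannot encode a chain, were read far less often than V segments. Of 155, 43 had reads (27.7%, against 94.5% of V segments), and their reads came to 3.61% and 5.71% of the V segment reads in TdTomato+ and to 1.17% and 1.68% in TdTomato-. Of 14 immunoglobulin J rows 4 had reads, 21 in all and all in the deeper TdTomato- library, and none of the 19 D rows had any. None of the 70 T cell receptor J rows had reads either, although 8 of 8 T cell receptor constant rows did. Whether reads can be assigned to such short segments was not tested, so these counts do not show that J or D segments were unused. V segments of the T cell receptor had reads in 82 of 144 rows. They stood at 0.250 and 3.62 RPM in TdTomato+ and at 5.18 and 4.63 in TdTomato-, below the immunoglobulin V segments in every library.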

How the data were processed

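Sorted TdTomato+ and TdTomato- periosteal cells (2 libraries each) were sequenced as 75-nucleotide paired reads, and STAR, Partek and mm10 were used per the submitters' processing notes, whose versions the sources used here do not give. The authors deposited 1 table of 47643 rows and 29 columns. Per the file headers it holds group means as a normalized signal, their difference as a natural log, a ratio, a highest value, a sum and a signed fold as scores, and a p-value and its step-up FDR, both of a shrunken lognormal model. Library values were solved from both means, that highest value and the natural log, as (RPKM over the genomic span + 0.1) divided by depth and span. That scale was inferred from the values. Pairs of values were assigned to libraries first where the swapped pair gave negative reads. Next came whole reads in both libraries (tolerance 0.01, at most 0.05), or else a whole value in either (tolerance 0.002). These rules settled 203 of 218 V segments, and whole family sums (tolerance 0.001) then settled 15. Which TdTomato- library is the more concentrated depends on that last step. The rows Gm43218 and Gm19331 were added to families after their values were seen. Of 148 sums of a family in a library, 146 were whole within that tolerance. The count includes the sums by which open pairs were assigned, which are whole by that choice. The recovery without the family sum step and the limma fit were tested on simulated data. Simulated reads in the recovery test were all whole, so it does not bear on related segments that share reads.

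The members, lists and tests were chosen with earlier results of these data known. Named segments were the 12 highest in TdTomato- and 6 highest in TdTomato+ by authors' mean, the 5 with the smallest authors' p in each direction and the highest of each chain in each group, 21 in all. Tests were the authors' p and FDR, limma 3.58.1 (R 4.3.3) on log2(RPKM + 1) and exact permutation tests over libraries. Intervals are 95% Wilson intervals. Alternatives covered pseudocounts, filters, scales, assignments, leaving out segments and leaving out libraries. The promoter octamer that the design listed was not analysed here.

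Of the 10 genes of the B cell marker list, 1 is not reported here and was left out of its sums.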

Additional observations from a re-analysis of the deposited data

How the results depend on the processing

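No paired analysis was possible because the recovered values carry no collection number, so a replicate block could not be fitted. In limma, 0 V segments passed an adjusted p of 0.05 under every pseudocount, filter and assignment tried and without each library. Against 42 V segments lower at an unadjusted p below 0.05 by the authors' test, limma gave 10 with 1 added, 9 with 0.1, 5 with 10, 9 with no filter, 5 with at least 10 reads in 2 libraries, 10 on settled rows and 5 under the other assignment, and 7 to 14 without 1 library. Higher V segments numbered 0 in all of these but 1 without the shallower TdTomato+ library (range 0 to 1). Without the deeper TdTomato- library 18 of the 34 segments had a lower and 16 a higher limma estimate, against 29 and 5 with all libraries. The lone library of a group is then assumed to vary like the others.

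The summed V level kept its direction under every alternative, from -2.28 to -3.21 on the log2 scale, and from -1.85 without the shallower TdTomato+ library to -4.45 without the deeper one. Without the deeper TdTomato- library it was -2.25. The log2 kappa to lambda difference was 0.22 under the other assignment and ran from -1.21 to 0.78 without 1 library. The difference in heavy share was -1.35 percentage points without the top segment of each chain and ran from -8.93 to 10.4 without 1 library.

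V segments with at least 10 reads in a library numbered 49 in TdTomato+ and 171 in TdTomato-. Single libraries held 38 to 67 segments in TdTomato+ and 74 to 205 in TdTomato-. Thinned to equal V reads, as an alternative added after seeing the data, the libraries held 38.0, 51.9, 42.6 and 99.8 segments. The top 10 share of TdTomato+ cells was 28.6% with the floor not subtracted, and single libraries ran from 43.7% to 57.6% in TdTomato+ and from 26.5% to 77.7% in TdTomato- on RPKM. The top segment held 5.82% to 14.9% and 6.78% to 34.6% there. Depth limits segments at few reads: 12 segments had 0 reads in 4 libraries, and the shallower TdTomato+ library held 5 segments with 10 reads or more. The octamer alternative was not run, because the promoter table used here lists no V segment.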
